A study of Homo sapiens with 4 samples.

Results

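PML, SP100, SP110 and SP140L encode components, or close relatives of components, of the PML nuclear body. They were taken from both transcript tables by gene symbol and are 4 of 27685 genes, with 22 of 63714 RefSeq transcripts. Counts of the transcripts of a gene were added up, and all 4 genes passed the filter on low counts that left 14868 genes for testing.

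RNA-seq was carried out to explore how TRIM40, a tripartite-motif ubiquitin ligase, alters the RNA profile of colonic epithelial cells. HT-29, a human colon cancer line, either carried the control vector (genotype WT in the labels, called control cells here) or stably expressed N-terminal Myc-tagged TRIM40 (genotype TRIM40 overexpression, called Myc-TRIM40 cells here). Each of 2 independent experiments gave 1 library per condition, which makes 4 libraries in all, and no library received a further treatment. Both kinds of cells were made with a retroviral vector, so TRIM40 was not under its own promoter. TRIM40 had 0 reads in both control libraries, against 272646 (experiment 1) and 110665 (experiment 2) with Myc-TRIM40. The libraries held 60954602 to 67424698 reads. All 9 colon epithelial markers had reads. The 6 leukocyte markers summed to 2.11 to 3.67 FPKM per library, with the T and B cell genes CD3E and MS4A1 at 0 in all 4 libraries. The myeloid genes ITGAM (198 and 390 reads in control and Myc-TRIM40 cells of experiment 1, 106 and 118 in experiment 2) and CD14 (148 and 243, then 297 and 219) were detected. Of the fibroblast and endothelial markers, COL3A1, PDGFRA and CDH5 were at 0, while COL1A1 had 226 and 352 reads and then 123 and 148, and PECAM1 17 and 31 and then 21 and 27. The part of these markers in the results was not tested. FPKM is a count of fragments scaled for transcript length and sequencing depth, so levels of different genes can be compared on it.

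PML nuclear bodies are round protein assemblies in the nucleus. PML, itself a tripartite-motif protein, forms their shell, and its conjugation to SUMO, a small ubiquitin-like modifier, recruits partners that bind SUMO. SP100 is the other classical resident protein of the bodies, and SP110, SP140 and SP140L belong to the same speckled protein family, whose members share a self-association domain and a DNA-binding SAND domain in their long forms. Genes of this group are interferon-stimulated genes (ISGs), and PML and SP100 restrict the early gene expression of several DNA viruses.

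On hg19, the build of the tables, PML (Entrez 5371) lies on chromosome 15 at 74287014 to 74340155. The other members lie in a row on chromosome 2, SP110 (Entrez 3431) at 231033645 to 231090444, SP140L (Entrez 93349) at 231191894 to 231268445 and SP100 (Entrez 6672) at 231280871 to 231410317. The relative SP140 (Entrez 11262) fills the gap between SP110 and SP140L, at 231090445 to 231177930. SP140L and SP100 were 12425 bases apart.

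RefSeq promoters (build GRCh38.p14, from 250 bases before to 50 bases after a start site) were at hand for SP110, SP140L and SP100, 3 of the 4 members, with 2 start sites each for SP110 and SP100. Because these genes were all higher in Myc-TRIM40 cells, their promoters were searched on both strands for AANNGAAA, the core that interferon regulatory factors bind, which was chosen after the sequences had been seen. The stretches that hold it are shown 5′ to 3′ on the strand of the gene with the core matches in capitals, which overlap by 1 base where 2 follow each other.
SP110, first start site, chr2:230225714-230225752, minus strand: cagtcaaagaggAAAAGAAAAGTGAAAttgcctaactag
SP110, second start site, chr2:230220009-230220047, minus strand: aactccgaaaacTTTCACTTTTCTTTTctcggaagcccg
SP140L, chr2:230327094-230327132, plus strand: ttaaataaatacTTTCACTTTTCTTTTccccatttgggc
SP100, first start site, chr2:230416125-230416163, plus strand: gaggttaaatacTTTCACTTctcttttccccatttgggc

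The core lay upstream of the start site in 4 of the 5 member promoters, at least 1 for each of the 3 genes, and in 20.3% of all 35116 promoters. Since the core was chosen after these sequences had been seen, these shares describe them and are not evidence of enrichment. The run of 15 bases in capitals in SP140L occurs in the second SP110 promoter in the same orientation and in the first in the opposite one. Over all promoters it was found upstream in 3, those of SP110 and SP140L. The SP100 window differs from it by T9C, counted from the 5′ end of the run. The SP110 stretch at the first start site also spans the start of SP140, which is read in the other direction. In the SP140 promoter the core lay upstream too, at -10 to -3, and another match spanned the start, at -3 to 4. SP140 had 6 reads in the control library of experiment 2 and 0 in the others, so the core was not limited to the genes that were higher. The longer interferon-stimulated response element GAAANNGAAA had no match upstream of these 5 starts and was found in 3.02% of all promoters. The GAS motif TTCNNNGAA, an element of interferon-gamma signalling, matched once upstream, at the second SP110 start, and was found in 6.57% of all promoters. Over the whole aligned promoters, that of SP140L and the first one of SP100 were 76.8% identical, and the other pairs of promoters of different genes were 44.6 to 53.0% identical. A match of letters is a description and does not show that a factor was bound.

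All 4 genes were higher in Myc-TRIM40 cells than in control cells in both experiments. The difference was larger in experiment 1, where SP110 was 4.93-fold and SP100 3.80-fold higher, than in experiment 2, where the ratios lay between 1.20 and 1.61. No member passed the test over all genes, and the values below are given as such.

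PML, the scaffold of the body, stood at 9.43 FPKM in control and 23.8 in Myc-TRIM40 cells of experiment 1, and at 4.38 and 7.14 in experiment 2. Each pair below is given in this order. The value of 7.14 with Myc-TRIM40 was below the 9.43 of the other control library, so the conditions overlapped although both pairs moved upwards. SP100, which binds heterochromatin protein 1 and is itself joined to SUMO, stood at 16.5 and 59.4 FPKM in experiment 1 and at 21.2 and 26.6 in experiment 2. Both Myc-TRIM40 values were above both control values.

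SP110, a nuclear protein whose inherited loss causes an immunodeficiency with liver veno-occlusive disease, stood at 5.59 and 24.7 FPKM in experiment 1 and at 6.11 and 9.18 in experiment 2. The control libraries were nearly equal, and both Myc-TRIM40 libraries were above them. SP140L, a close relative of SP140, stood at 7.56 and 12.9 FPKM in experiment 1 and at 6.15 and 8.59 in experiment 2, again without overlap. The conditions did not overlap for 3 of the 4 members, a pattern that 15.2% of all genes tested had in this direction. FPKM was higher in both experiments for 4 of 4 members and for 37.3% of genes tested. These were bulk RNA samples, in which more cells with a transcript and more RNA per cell cannot be told apart.

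**Figure D1:**
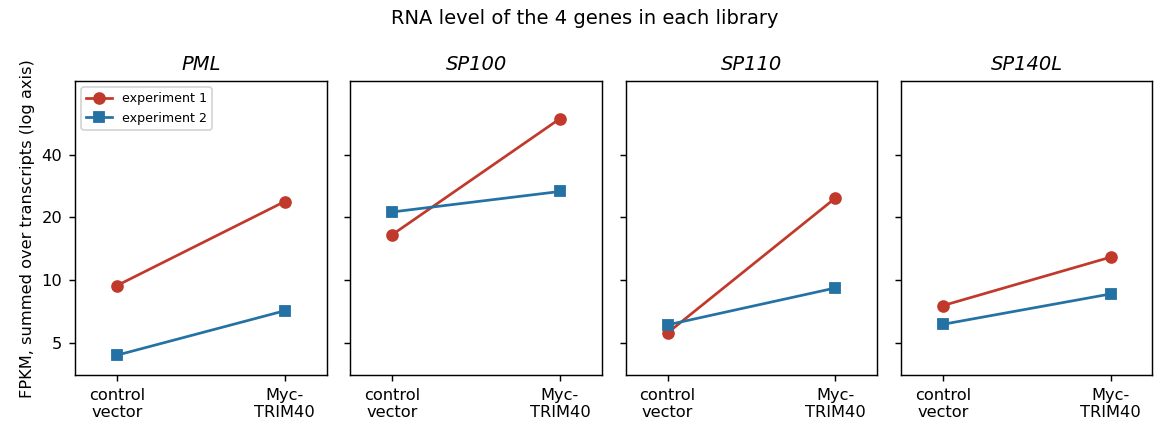
FPKM of PML, SP100, SP110 and SP140L in each of the 4 libraries, on a log axis, with a line joining the control vector and Myc-TRIM40 library of 1 experiment (circles, experiment 1, squares, experiment 2). Every line goes up, and the steepest is that of SP110 in experiment 1, from 5.59 to 24.7.

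The ratio of CPM, counts scaled to library size with TMM factors, was 2.52 for PML in experiment 1 (95% counting interval 2.39 to 2.66) and 1.61 in experiment 2 (1.49 to 1.75). It was 3.80 (3.63 to 3.98) and 1.20 (1.15 to 1.26) for SP100. It was 4.93 (4.56 to 5.34) and 1.37 (1.26 to 1.50) for SP110, and 1.67 (1.55 to 1.79) and 1.28 (1.19 to 1.39) for SP140L. None of these intervals reached 1, yet they cover counting error only and not the spread between cultures. The intervals of the experiments did not meet for any of the members, so the sizes of the effect differed by more than the counting error. PML had the largest ratio in experiment 2 and SP110 in experiment 1.

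A fold of at least 1.5 on FPKM + 1, that is FPKM with 1 added to both values, was reached by 4 of 4 members in experiment 1, where 2.78% of genes tested reached it. In experiment 2 it was reached by 1 of 4, PML at 1.51-fold, where the background was 8.54%. On this scale PML was the member that reached it in both experiments, as did 0.457% of genes tested. The count in experiment 2 depended on the unit. In TPM, whose total is equal for all libraries, PML stood there at 7.92 and 15.2. SP110 stood at 11.1 and 19.6 TPM, and SP140L at 11.1 and 18.3. With 1 added, these members passed 1.5-fold, while SP100 (38.5 and 56.8 TPM) did not. By the ratios of CPM above, PML alone passed it in experiment 2, at 1.61. No share of all genes was computed in TPM. On the log2 scale of FPKM + 1 the ratios in experiments 1 and 2 were 1.25 and 0.60 for PML, 1.78 and 0.31 for SP100, 1.96 and 0.52 for SP110, and 0.70 and 0.42 for SP140L. The median over the 11801 genes with a mean of at least 1 FPKM was 0.014 in experiment 1 and 0.10 in experiment 2, and all 8 ratios lay above it. TRIM40 itself was at 2086 FPKM in experiment 1 and 827 in experiment 2, and whether its level bears on the difference was not tested.

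**Figure D2:**
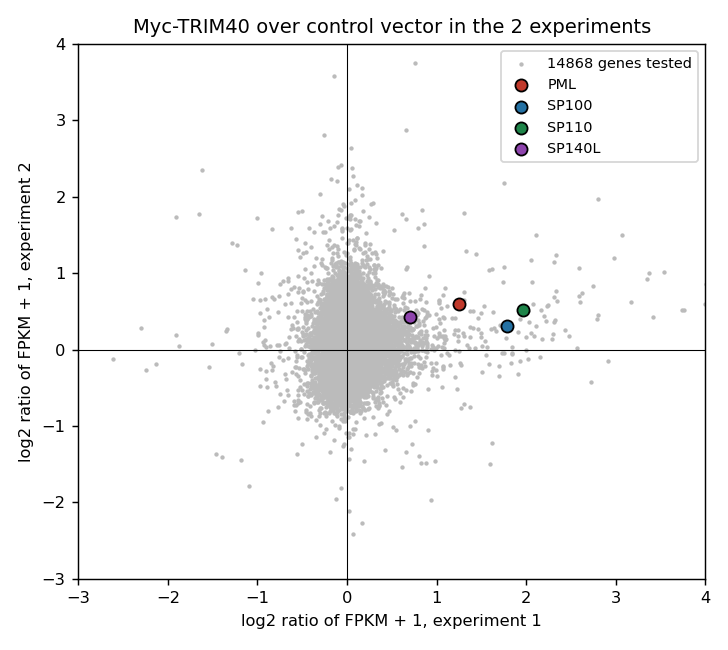
Log2 ratio of FPKM + 1, Myc-TRIM40 over control vector, in experiment 1 (horizontal) and experiment 2 (vertical) for the 14868 genes tested (grey, 11 lie outside the axes) and the 4 members (coloured). The members lie to the upper right of 0, SP110 farthest right at 1.96 and PML highest at 0.60.

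With edgeR's quasi-likelihood test, in which the experiment was a block, the log2 fold change over both experiments was 1.01 ± 0.24 (SE, n = 2 libraries per condition) for PML (edgeR adjusted p = 0.523). It was 1.10 ± 0.37 for SP100 (edgeR adjusted p = 0.888) and 1.38 ± 0.40 for SP110 (edgeR adjusted p = 0.888). SP140L had the smallest value, 0.55 ± 0.22 (edgeR adjusted p = 0.888). Thus 0 of 4 members passed an adjusted p of 0.05, a threshold that 0.0404% of genes tested passed in the upward direction. At an unadjusted p under 0.05 it was 4 of 4, against 3.41% of genes tested. With DESeq2, 0 of 4 passed after adjustment, against 0.303% of genes tested, the lowest adjusted p being 0.0751 for SP110 and 0.0799 for PML, and 3 of 4 had an unadjusted p under 0.05, against 2.37% of genes tested.

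Ranked by log2 fold change, SP110 was exceeded by 1.72% of genes tested, SP100 by 2.82%, PML by 3.27% and SP140L by 9.52%. The members were picked with earlier results of these data known, so these ranks and counts describe them and are not independent evidence. The test had 1 residual degree of freedom for each gene. An exact permutation test of 2 against 2 libraries that ignores the pairing cannot go below p = 0.333, and keeping the pairs leaves fewer arrangements.

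Levels between genes were compared in FPKM. SP100 was the most abundant member in all 4 libraries, at 16.5 to 21.2 FPKM in control and 26.6 to 59.4 in Myc-TRIM40 cells, above the highest value of any other member in the same condition. The other 3 could not be ordered in control cells, since PML ranged from 4.38 to 9.43, SP110 from 5.59 to 6.11 and SP140L from 6.15 to 7.56, and PML held the second place in experiment 1 and the last in experiment 2. SP110 stood below SP140L in both control libraries and was second to SP100 in both Myc-TRIM40 libraries, at 24.7 and 9.18 FPKM. Its values there overlapped those of PML (23.8 and 7.14) and SP140L (12.9 and 8.59). SP140, which is mainly a gene of leukocytes, had 6 reads in the control library of experiment 2 and 0 in the other 3 libraries, and was not tested. The members together summed to 39.1 and 121 FPKM in experiment 1 and to 37.9 and 51.5 in experiment 2.

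The members are spliced into several isoforms, whose levels are estimates that share out the reads matching more than 1 of them. Of the 22 transcripts, 19 passed the filter on low counts. FPKM was higher in Myc-TRIM40 cells for 19 of these in experiment 1 and for 13 in experiment 2, for which no share over all transcripts was computed. It was higher in both experiments for 13 of 19, and for 30.2% of the 33773 transcripts tested. With edgeR, 0 of 19 passed an adjusted p of 0.05, as did 0% of transcripts tested in the upward direction. At an unadjusted p under 0.05 it was 3 of 19, against 1.71%, and with DESeq2 it was 5 of 19 unadjusted, against 4.55%, and 0 after adjustment, against 0.643%. In GENCODE, the 100-base stretches of NM_033239, NM_033249 and NM_033250 of PML, NM_001206702 of SP100 and NM_001308162 of SP140L all occur in another isoform of the same gene, so the estimates of these 5 rest on how the shared reads were divided.

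PML isoforms share their first exons, which encode the tripartite motif, and differ at the C terminus. The 3 transcripts with an unadjusted p under 0.05 were all of PML. NM_033238, the longest form with 882 codons, usually called PML-I, stood at 0.434 and 1.90 FPKM in experiment 1 and at 0.149 and 0.562 in experiment 2 (log2 fold change 1.98 ± 0.41, edgeR adjusted p = 0.977). NM_033239, with 829 codons, stood at 2.00 and 6.25 FPKM and at 0.576 and 1.76 (log2 fold change 1.58 ± 0.32, edgeR adjusted p = 0.977). NM_033240, with 611 codons, stood at 2.32 and 5.03 FPKM and at 1.08 and 2.57 (log2 fold change 1.14 ± 0.29, edgeR adjusted p = 0.977). Each of these was higher in both experiments, and NM_033238 had the lowest level of the 3. It is also the form with the largest share of stretches of its own, 57.9% of its 100-base words in GENCODE. By these models its estimate depends least on the other isoforms, though its model has 4508 bases against 5595 as deposited.

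The other PML forms did not move alike in the experiments. NM_033250 had 413 and 785 reads in experiment 1 and 266 and 222 in experiment 2. NM_033249 stood at 0.924 and 2.39 FPKM and then at 0.529 and 0.468. NM_002675, with 633 codons, stood at 0.833 and 1.42 and then at 0.356 and 0.424. NM_033244, with 560 codons, had 130 and 418 reads in experiment 1 and 82 and 5 in experiment 2, so its direction turned between the experiments. NM_033247 had 0 reads in both control libraries against 44 and 19 with Myc-TRIM40. This is 14.4-fold higher in experiment 1 when the control is set to a floor of 3 reads per library. Only 5.92% of the 100-base words of NM_033247 were its own, so its counts rest on how shared reads were divided, which the floor does not cover. NM_033246 had 0 reads in all 4 libraries.

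**Figure D3:**
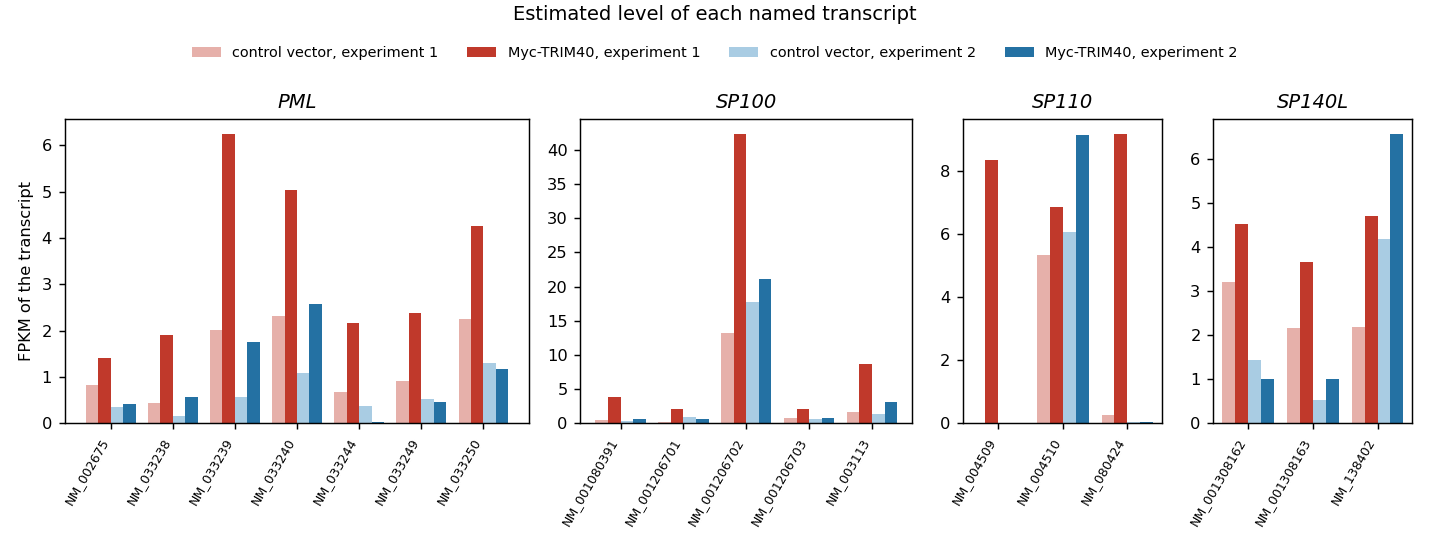
FPKM of the 18 member transcripts that reached 1 FPKM in at least 1 library, by gene, with 1 bar per library (light red and red, control vector and Myc-TRIM40 of experiment 1, light blue and blue, those of experiment 2). In SP110 the bars of NM_004509 (8.34) and NM_080424 (9.17) stand out with Myc-TRIM40 in experiment 1, while NM_004510 is the main form in the other 3 libraries.

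SP100 is made mainly as a short form with 480 codons, NM_001206702, usually called Sp100A, which lacks the SAND domain. It stood at 13.2 and 42.3 FPKM in experiment 1 and at 17.8 and 21.2 in experiment 2, which was 80.0%, 71.3%, 83.8% and 79.5% of the FPKM of the gene in the order control and Myc-TRIM40 of experiment 1 and of experiment 2. NM_003113, the form with a high-mobility-group box and 879 codons, stood at 1.68 and 8.68 FPKM and at 1.42 and 3.05. Its share of the FPKM of the gene was 10.1% and 14.6% in experiment 1 and 6.71% and 11.5% in experiment 2. The longest form, NM_001080391 with 885 codons, stood at 0.535 and 3.88 FPKM and at 0.318 and 0.628. These 3 forms were higher in both experiments, and the 2 long ones had the larger ratios in each. NM_001206703, with 452 codons, stood at 0.712 and 2.07 FPKM and at 0.598 and 0.818. NM_001206701, with 688 codons, stood at 0.248 and 2.04 FPKM and at 0.982 and 0.609, so that its direction turned between the experiments.

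The forms with the same 3′ end can also be added up. These sums are still of estimated counts, since reads shared by forms with different ends were divided between them. The Wilson intervals below, here and for the other members, do not cover the error of that division. Of the SP100 reads, 74.5% (95% Wilson interval 72.7 to 76.2) in control and 60.8% (59.9 to 61.8) in Myc-TRIM40 cells of experiment 1 were assigned to the 3 short forms that end first, at 231335250. In experiment 2 it was 80.0% (78.6 to 81.4) and 73.6% (72.2 to 75.0). The share that ends with NM_003113, at 231381244, was 16.2% (14.8 to 17.8) and 21.6% (20.8 to 22.5) in experiment 1 and 11.3% (10.2 to 12.4) and 18.4% (17.2 to 19.7) in experiment 2. Both shares had the same direction in both experiments and their intervals did not meet within an experiment, but the control libraries also differed from each other by more than the counting error. The end of NM_001206701, at 231372861, turned instead, from 1.52% (1.099 to 2.096) to 3.19% (2.85 to 3.57) in experiment 1 and from 4.91% (4.22 to 5.71) to 2.33% (1.90 to 2.85) in experiment 2. The last end, that of NM_001080391 at 231410317, took 7.72% (6.71 to 8.87) and 14.4% (13.7 to 15.1) and then 3.76% (3.16 to 4.47) and 5.63% (4.95 to 6.40).

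NM_003113 contains sequence that is repeated in processed copies of HMGB1. Of the 50-base words of SP100, 9.24% also occur in transcripts of HMGB1 or its pseudogenes in GENCODE, so part of the level of this form is uncertain. For SP140L, 13.0% of the words occur in other genes, mostly SP140, and for PML and SP110 the share was 0%. No other gene of the tables overlapped a member.

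For PML, the last end, at 74340155, took 8.18% (95% Wilson interval 7.02 to 9.52) of reads in control and 13.9% (12.9 to 14.9) in Myc-TRIM40 cells of experiment 1. It took 6.16% (4.80 to 7.89) and 13.2% (11.6 to 15.0) in experiment 2. This is the end of NM_033238 alone, and its share was higher with Myc-TRIM40 in both experiments while both control values were below both Myc-TRIM40 values. The middle end, at 74335717, was lower with Myc-TRIM40. It went from 12.8% (11.4 to 14.4) to 10.7% (9.85 to 11.6) in experiment 1, where the intervals met. In experiment 2 it went from 14.1% (12.1 to 16.5) to 8.09% (6.83 to 9.57), where they did not. The first end, at 74328735, held 75.4% to 79.7% of reads in all 4 libraries.

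**Figure D4:**
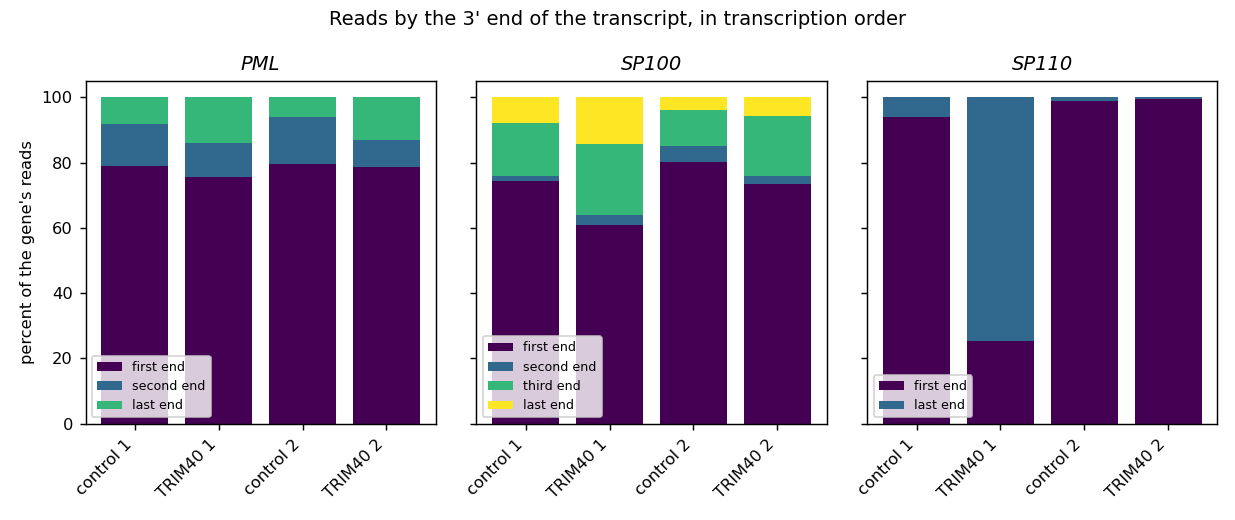
Percent of the reads of PML, SP100 and SP110 assigned to transcripts with the same 3′ end, stacked in transcription order, in each library (control and TRIM40 stand for control vector and Myc-TRIM40, 1 and 2 for the experiments). The last end of SP110 takes 74.7% with Myc-TRIM40 in experiment 1 and at most 5.96% in the other libraries.

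SP110 had a different isoform make-up in 1 library. NM_004510, with 549 codons, is the form that ends first, and stood at 5.33 and 6.85 FPKM in experiment 1 and at 6.06 and 9.14 in experiment 2. The longer NM_080424, with 713 codons, had 44 and 1481 reads in experiment 1 and 10 and 8 in experiment 2. NM_004509, with 689 codons, had 0 and 1310 reads in experiment 1, 428-fold higher against a floor of 3 reads per library, and 0 in both libraries of experiment 2. Only 4.38% of its 100-base words were its own, so its counts rest on how shared reads were divided, which the floor does not cover. NM_004509 was filtered out and not tested, and NM_001185015, the form with the upstream start, had 51 reads in the same library and at most 1 in the others.

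The SP110 reads with the last end, at 231033645, were therefore 5.96% (95% Wilson interval 4.47 to 7.91) in control and 74.7% (73.3 to 76.1) in Myc-TRIM40 cells of experiment 1. In experiment 2 they were 1.13% (0.614 to 2.06) and 0.650% (0.330 to 1.28), with no difference detectable at this depth. The reads with the first end were 694 and 946 in experiment 1 and 877 and 1222 in experiment 2. Thus, of the higher SP110 total in experiment 1, most was assigned to the long forms, and the short form had ratios of similar size in both experiments, with log2 ratios of FPKM + 1 of 0.31 and 0.52. This pattern rests on 1 library and was not repeated in the other pair.

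SP140L has 3 forms with 1 common end. NM_138402, with 580 codons, stood at 2.19 and 4.70 FPKM in experiment 1 and at 4.18 and 6.57 in experiment 2 (log2 fold change 0.83 ± 0.32, edgeR adjusted p = 0.977). NM_001308163, with 520 codons, stood at 2.17 and 3.67 and then at 0.525 and 1.01. NM_001308162, with 555 codons, stood at 3.20 and 4.53 and then at 1.44 and 1.02, so that it was higher in experiment 1 and lower in experiment 2. NM_138402 made up 28.96% of the SP140L FPKM in control cells of experiment 1 and 68.0% in those of experiment 2, a gap between control libraries that was wider than the change with Myc-TRIM40 in either experiment.

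The proteins that PML and SP100 gather in the body form the next group, a list of 24 partners that includes histone chaperones, DNA repair factors and heterochromatin proteins. All 24 were tested, and with edgeR 0 passed the adjusted test, which 0.0404% of genes tested passed upwards. With edgeR 0 had an unadjusted p under 0.05, where 3.41% of genes tested were higher and 1.13% lower. DESeq2 and limma also called 0 of the 24 partners after adjustment. Their median log2 fold change was 0.12, beside 0.04 for all genes tested and 1.06 for the 4 members. Within experiments, 10 of 24 (41.7%) were higher with Myc-TRIM40 in experiment 1 and 21 (87.5%) in experiment 2, beside 56.8% and 61.7% of all genes tested, with medians of -0.03 and 0.34 on the log2 scale of FPKM + 1. DAXX, the H3.3 chaperone that binds SUMO-modified PML, stood at 37.4 and 34.7 FPKM in experiment 1 and at 28.9 and 31.0 in experiment 2, and its conditions overlapped. Its remodelling partner ATRX stood at 9.91 and 9.88 FPKM and then at 4.90 and 9.11.

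The partner with the highest mean ratio was ISG20, an exonuclease induced by interferon, at 2.04 and 8.12 FPKM in experiment 1 and 2.14 and 1.75 in experiment 2, so that 1 library again carried the difference. UBN1, a subunit of the HIRA chaperone complex, followed with 15.3 and 16.4 FPKM and then 7.57 and 14.0. The lowest were CBX3, a heterochromatin protein (135 and 132 FPKM, then 329 and 261), the transcription factor ETS1 (3.14 and 1.76, then 2.54 and 3.77) and the histone chaperone ASF1A (10.3 and 10.3, then 16.0 and 14.6).

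SUMO conjugation holds the body together, and its 19 listed genes (modifiers, activating and conjugating enzymes, ligases and proteases) were all tested. Of these, 0 passed the adjusted test with edgeR, DESeq2 or limma, and with edgeR 0.0404% of genes tested passed it upwards. At an unadjusted p under 0.05 with edgeR it was 1, RNF111, a SUMO-targeted ubiquitin ligase (7.54 and 9.60 FPKM, then 3.05 and 5.99). This is near the background, where 3.41% of genes tested were higher and 1.13% lower at that p. FPKM was higher in both experiments for 7 of 19 (36.8%), beside 37.3% of genes tested. The median log2 fold change of the 19 was 0.06, and the medians within experiments 1 and 2 were -0.003 and 0.24. SUMO2, one of the modifiers, stood at 200.3 and 197 FPKM in experiment 1 and at 362 and 279 in experiment 2, so its control libraries were farther apart than either pair. The activating subunit SAE1 stood at 109 and 97.0 and then at 127 and 123. RANBP2, a ligase at the nuclear pore, stood at 15.3 in both libraries of experiment 1 and at 10.5 and 16.4 in experiment 2.

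**Figure D5:**
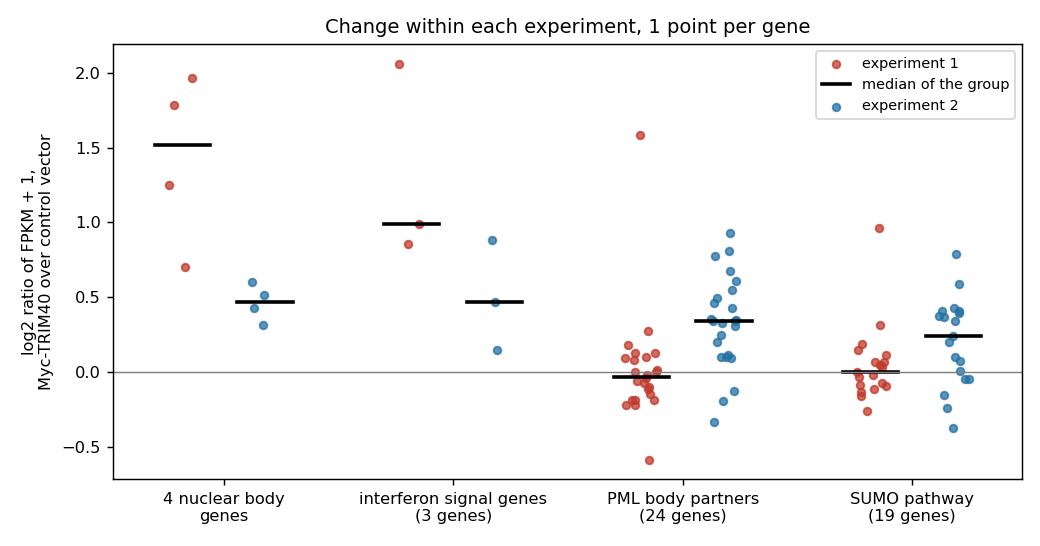
Log2 ratio of FPKM + 1, Myc-TRIM40 over control vector, for each gene (points) with the median of its group (bars), in experiment 1 (red) and experiment 2 (blue). The 4 nuclear body genes and the 3 interferon signal genes lie above 0 in both experiments, while the medians of the 24 PML body partners are -0.03 and 0.34 and those of the 19 SUMO pathway genes -0.003 and 0.24.

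Genes of interferon signalling were followed as well, and whether they act on the members was not tested. IRF9, the DNA-binding subunit of the complex ISGF3, stood at 9.17 and 41.4 FPKM in experiment 1 and at 8.18 and 15.9 in experiment 2 (log2 fold change 1.49 ± 0.32, edgeR adjusted p = 0.395). STAT2, another subunit, stood at 5.88 and 12.7 and then at 3.58 and 5.33, and IRF1 at 9.24 and 17.5 and then at 7.23 and 8.10. These 3 were higher in both experiments, as were 37.3% of genes tested. With edgeR 0 passed the adjusted test and 2 had an unadjusted p under 0.05, beside 3.41% of genes tested in this direction. As in the members, all 3 ratios were larger in experiment 1.

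The genes whose profile over the 4 libraries was closest to a member were found by the distance between centred TMM-scaled log2 CPM among the genes tested. For SP110 they included GBP1, an interferon-inducible GTPase (distance 0.207), and IRF7, a transcription factor of the interferon response (0.225). For PML they were NKD1, VSIG1 and CATSPERG, for SP100 RNF144A, CYP3A7 and SOX30, and for SP140L CYLD, SRGAP2D and ZKSCAN2. Those of PML and SP100 had low counts, with 7 to 228 reads per library. On the scale of log2(FPKM + 1), 0 of the 3 nearest genes were shared with this list for each of the 4 members, and the nearest were SYT7 for PML, REC8 for SP100, PARP12 for SP110 and HIST1H2BN for SP140L. On TMM-scaled log2 CPM, SP100 was the 20th nearest gene of SP110, and SP110 the 26th nearest of SP100. On log2(FPKM + 1) each of these 2 was the 6th nearest gene of the other. Profiles over 4 libraries share depth and culture, and the distances are a description.

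The genes around the members did not pass the test. Within 250 kb of a member there were 18 other genes, of which 9 were tested, 0 passed the adjusted test and 0 had an unadjusted p under 0.05 with edgeR. Of all genes tested, 0.0404% passed the adjusted test upwards, and 3.41% were higher and 1.13% lower at that unadjusted p. The log2 fold changes of the 9 tested neighbours ranged from -1.32 to 0.44 with a median of 0.09. STOML1, which starts 50 bases from PML and is read away from it, stood at 3.65 and 3.27 FPKM in experiment 1 and at 4.24 and 3.81 in experiment 2 (log2 fold change -0.22 ± 0.23). On the other side of PML, the nearest tested gene was STRA6, a retinol transporter, at 1.50 and 1.42 and then 0.282 and 0.268 FPKM. Beyond SP100, CAB39 stood at 22.8 and 29.4 and then at 29.7 and 32.9 FPKM, with a log2 fold change of 0.18 ± 0.22. Beyond SP110, SLC16A14 had 12 and 0 reads and then 27 and 25, and held the lowest value of the group.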

How the data were processed

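RNA-seq was measured in 4 HT-29 libraries. The submitters' processing notes name HISAT2 2.1.0, StringTie 1.3.4d and hg19. Each deposited table holds 1 experiment, with an estimated count that the authors made per RefSeq transcript and library, not normalized, beside FPKM. TPM was deposited by the authors for experiment 2, and was computed from FPKM here for both experiments. FPKM values deposited by the authors are scaled for transcript length and depth. Whether counting used the strand of the stranded kit is not given in the sources used here.

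Counts deposited per transcript were whole numbers and were summed per Entrez gene. edgeR 4.0.16 (filterByExpr, TMM, glmQLFit, Benjamini-Hochberg over all features tested) was run with the experiment as a block on 14868 genes and 33773 transcripts. The replicate numbers of the labels and the tables pair the libraries: deviations from the group means of same-numbered libraries correlated at 0.449 over genes and 0.162 over transcripts, and with 2 pairs this check is weak. Labels call the replicates separate samples. With the block, p-values measure the change against how far the ratios of the 2 experiments disagree. The spread behind them had 1 residual degree of freedom per gene and a median of 7.44 borrowed from the other genes.

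Ratios within an experiment used log2(FPKM + 1), which understates the change of low genes. Alternatives were DESeq2 1.42.0, limma 3.58.1, upper-quartile scaling, no filter, no block, other units and leaving out an experiment. On simulated counts with a dispersion of 0.05, the gene step, run on 14704 genes, found 98 of 98 genes changed 4-fold, 136 of 200 changed genes in all and called 7 unchanged ones. The simulation gave every gene the same dispersion and each changed gene the same fold in both experiments. The ratios of the members differed between the experiments, so it does not show how often such genes would be found. Members and lists were chosen with earlier results of these data known. Named were the 4 genes, their transcripts that reached 1 FPKM, SP140, TRIM40, 3 interferon signal genes, DAXX, ATRX, the 3 highest and 3 lowest genes of each list by mean log2 ratio, the nearest tested neighbours and the 3 most alike genes, and some genes that this rule names are not reported here. Transcripts below 1 FPKM were added after their values were seen. Coding lengths and shared words came from GENCODE v29 (22 of 22 transcripts matched by RefSeq name), and promoters from RefSeq on GRCh38.p14. Some GENCODE models differ in length from the deposited ones, so the shares of words are approximate. NM_001080391 had 2926 bases in GENCODE against 5455 as deposited, and NM_033238 had 4508 against 5595. Intervals and floors cover counting error only.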

Additional observations from a re-analysis of the deposited data

How the results depend on the processing

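The 4 members kept a positive log2 fold change under each gene-level alternative, 28 combinations of member and setting in all. These settings were no block, DESeq2, upper-quartile scaling, no filter, limma and each experiment alone. The members stayed above an adjusted p of 0.05 under all of these but the experiments alone, which allow no test. Without the block, which the pairing of the experiments supplies, their log2 fold changes were 1.15 for PML, 1.22 for SP100, 1.60 for SP110 and 0.57 for SP140L, and 2 of 4 had an unadjusted p under 0.05, beside 0.861% of genes tested in this direction. Experiment 2 alone gave the lowest and experiment 1 alone the highest log2 ratio of TMM-scaled CPM, 0.69 and 1.33 for PML, 0.27 and 1.93 for SP100, 0.46 and 2.30 for SP110 and 0.36 and 0.74 for SP140L. The adjusted p of the members ranged from 0.0751 to 1.00 over the tools.

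Over all genes, 6 were called higher and 3 lower with the block, 0 and 0 without it, 45 and 9 with DESeq2, 0 and 0 with no filter and 3 and 0 with limma. Transcripts called higher and lower numbered 0 and 0 with edgeR and 217 and 114 with DESeq2. In the transcript fit, the direction of NM_033244 turned from -1.04 to 1.01 without the block and 0.24 with limma, and that of NM_001308162 from -0.04 to 0.22 and 0.059, and the cause was not tested. With 2 libraries per condition and 1 residual degree of freedom per gene, the depth of 60954602 to 67424698 reads was not the limit for the members, whose counting intervals were narrow, whereas isoform estimates rest on reads shared between overlapping forms.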
